A study of Rattus norvegicus with 13 samples.

Results

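Rat pancreatic islets given an adenovirus that carried the homeobox transcription factor Nkx6.1 were compared with islets given a control virus that carried the bacterial enzyme beta-galactosidase (bGAL). The contrast used 10 of the 13 arrays in the series, the 5 labelled with the Nkx6.1 virus and the 5 labelled with the bGAL virus, and the labels alone chose them. The other 3 arrays came from islets given a Pdx1 virus and stayed out of the contrast, except in an alternative fit over all 13 arrays. Of 26962 probes that are not control spots, 17992 had at least 2 values in both groups and were tested.

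The Nkx6.1 islets received AdCMV-Nkx6.1, which carries the hamster form of the factor, and the bGAL islets received AdCMV-bGAL. All islets came from male Sprague-Dawley rats, were treated with virus for 18 h and were then cultured for another 60 h. Pools of about 200 islets per condition were kept at 8 mM glucose with 10% serum, and each array is labelled as an independent islet preparation. Both groups therefore carried an adenovirus, and no untreated islets enter the contrast. The CMV promoter named in the vectors is active in many cell types, so the transferred gene was not limited to beta cells by its promoter. From 500 ng of RNA, amplified islet RNA was labelled with Cy5 and hybridized together with Cy3-labelled rat reference RNA to spotted oligonucleotide arrays. A level here is the log2 ratio of islet over reference RNA, and a difference is the mean level on the Nkx6.1 arrays minus that on the bGAL arrays.

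Nkx6.1 is made in adult beta cells, where it maintains the expression of genes for insulin secretion, and its transfer into cultured rat islets is known to raise beta-cell replication. A cell that divides first licenses and copies its DNA under G1/S cyclins and E2F factors. It then makes the kinases, kinesins and checkpoint proteins of mitosis, most of which are transcribed late in the cycle and are almost silent in resting islets. An islet also holds alpha, delta and PP cells, which make glucagon, somatostatin and pancreatic polypeptide, together with vessel, stromal and immune cells.

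Values were present for 10475 to 26562 probes per array. On 5 arrays (Nkx6.1 1 and bGAL 1, 2, 3 and 5) 35.4% to 61.1% of probes were empty, and on the other 5 (Nkx6.1 2 to 5 and bGAL 4) 1.48% to 12.4% were. These array sets were defined from the data and overlap largely with the groups, so the called genes and some list medians below are also given within a set. The array Nkx6.1 2 stood apart, with a median correlation of 0.664 across probes with the other 9 arrays, against 0.877 to 0.898 for the other Nkx6.1 arrays. The islet markers Ins1, Ins2, Iapp, Slc2a2, Gcg, Sst and Ppy lay between 2.49 and 8.24 on all 10 arrays. Log ratios alone hold no signal over background, and the small number of arrays limits precision. Between 374 and 1796 values per array lay within 0.01 of a log2 ratio of 0.

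The probe for rat Nkx6-1 read 3.77, 2.31, 3.42, 2.90 and 3.53 on Nkx6.1 arrays 1 to 5, against 3.82, 4.14, 3.83, 3.33 and 3.50 on bGAL arrays 1 to 5. The groups overlapped, and the difference was -0.54 (SE 0.30, limma adjusted p = 0.533), or 0.67 when the arrays were quantile normalized. Because the virus carried a hamster sequence, and where this rat probe lies in the transcript is not given here, the probe does not check the transfer.

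Genes of cell division rose, with 9 of the 17 named rises in the mitosis list and 1 in the G1/S list, and the 5 named falls included Rbp4 and Hhex, genes that mark delta cells within the islet. At an adjusted p of 0.05, 26 of the 17992 probes were called (0.145%), 21 higher and 5 lower under Nkx6.1, and 1983 probes (11.0%) had an unadjusted p under 0.05. All 26 had Nkx6.1 values that did not overlap the bGAL values. With the replicate number as a block in the limma fit, 0 probes were called, and the smallest adjusted p among the 26 was 0.147. Of the 26, 22 carried a gene symbol and 4 did not. The median difference over all probes was -0.08. With each of 9809 genes taken at 1 probe, 16 were called higher (0.163%) and 5 lower (0.051%), and 348 lay wholly above bGAL (3.55%) and 419 wholly below it (4.27%). An unadjusted p under 0.05 was reached by 473 genes on the higher side (4.82%) and by 689 on the lower side (7.02%). In RNA from whole islets, fewer cells of a type and less RNA per cell cannot be told apart, and the same holds for more.

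Cdk1, the kinase that drives cells into mitosis, was the gene with the smallest adjusted p. It read -0.89, -0.85, -1.03, -1.33 and -1.44 on the 5 Nkx6.1 arrays, against -4.11, -3.55, -4.03, -3.82 and -3.28 on the 5 bGAL arrays. Every Nkx6.1 value lay well above every bGAL value, and the difference of 2.65 (SE 0.23) is a 6.28-fold rise (adjusted p = 0.0037). Cdkn3, a phosphatase that acts on Cdk1 and related kinases, read -1.77, -1.28, -1.33, -1.72 and -1.76 in Nkx6.1 islets, against -3.81, -3.54, -3.39, -3.68 and -3.60 in bGAL islets. Its groups were also far apart, by 2.03 (SE 0.20, 4.09-fold, adjusted p = 0.00529). Cdk1 and Cdkn3 were the only 2 of the 26 probes that kept an adjusted p under 0.05 whichever of the 10 arrays was left out.

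Other kinases of mitosis rose with Cdk1. Plk1, which acts at centrosomes and kinetochores, read -1.78, -1.51, -1.42, -1.40 and -1.66 under Nkx6.1, against -3.24, -3.97, -2.94, -3.64 and -3.51 under bGAL (difference 1.91, 3.75-fold, adjusted p = 0.0123). Aurka, the centrosomal Aurora kinase, read -1.19, -1.84, -0.88, -1.16 and -1.34 under Nkx6.1, against -3.25, -3.02, -3.61, -2.65 and -2.99 under bGAL (1.82, 3.54-fold, adjusted p = 0.0195). Neither gene's groups overlapped, and Plk1 varied less under Nkx6.1 than under bGAL. Mastl, the kinase that keeps the phosphatase opposing Cdk1 switched off, read -0.23, -1.31, -0.48, -0.74 and -1.04 under Nkx6.1, against -3.73, -2.67, -4.05, -2.51 and -2.71 under bGAL (2.38, 5.2-fold, adjusted p = 0.0291). Melk, a kinase of dividing and progenitor cells, read -1.54, -2.0, -2.25, -2.13 and -1.97 under Nkx6.1, against -3.12, -3.32, -3.67, -3.80 and -3.52 under bGAL (1.51, 2.85-fold, adjusted p = 0.026). Nkx6.1 arrays were higher throughout, although Mastl on bGAL 1 and 3 lay far below the other 3 bGAL arrays.

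Spindle genes formed the second group of rises. Hmmr, a spindle and hyaluronan-binding protein, read -2.26, -1.55, -1.91, -2.40 and -2.10 under Nkx6.1, against -4.17, -3.53, -4.62, -3.68 and -4.29 under bGAL (difference 2.01, 4.03-fold, adjusted p = 0.017). Tpx2, the activator that brings Aurka to the spindle, read -2.58, -1.54, -1.86, -2.21 and -2.30 under Nkx6.1, against -4.55, -3.66, -4.22, -3.49 and -3.53 under bGAL (1.79, 3.47-fold, adjusted p = 0.0468). None of these values overlapped between the groups. Ckap2, which stabilizes spindle microtubules, read -1.40, -1.91, -0.91, -1.34 and -0.95 under Nkx6.1, against -2.77, -2.98, -2.80, -3.30 and -3.04 under bGAL (1.67, 3.19-fold, adjusted p = 0.0255). Stmn1, which takes microtubules apart, read -0.45, -0.93, -0.75, -0.68 and -0.80 under Nkx6.1, against -2.25, -2.47, -2.12, -2.15 and -2.44 under bGAL (1.57, 2.96-fold, adjusted p = 0.0123). Stmn1 had little spread in either group, 0.18 in Nkx6.1 and 0.16 in bGAL islets (SD, n = 5 each).

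Tacc3, which holds spindle fibres together, read -2.36, -2.36, -2.07, -2.58 and -2.34 under Nkx6.1, against -3.93, -3.57, -4.10, -4.02 and -3.80 under bGAL. That probe differed by 1.54 (2.91-fold, adjusted p = 0.0154), while a further probe named Tacc3 differed by -0.78 (adjusted p = 0.51). The probes of this gene therefore disagree in sign.

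**Figure D1:**
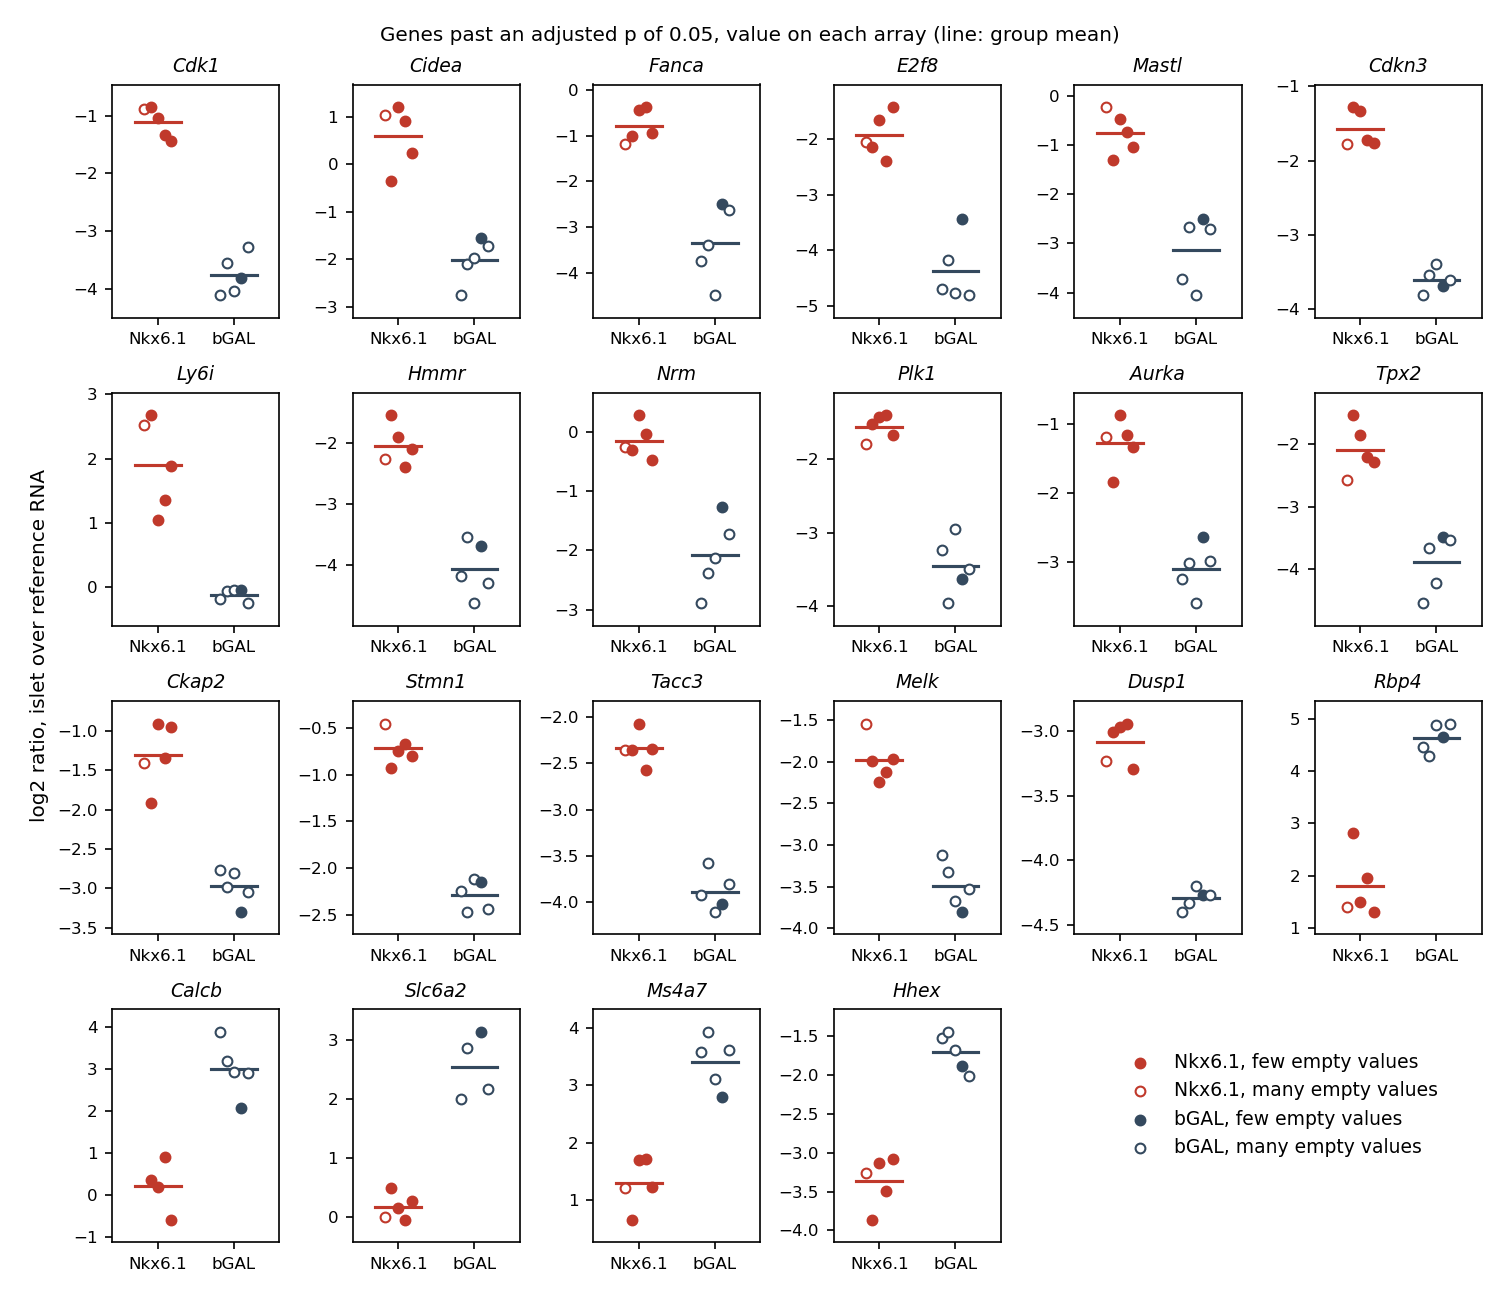
Level (log2 ratio of islet over reference RNA) of the 22 named probes called at an adjusted p of 0.05, with the 5 Nkx6.1 arrays left of the 5 bGAL arrays in each panel, filled points for arrays with few empty probes, open points for arrays with many, and a line at each group mean. In all 22 panels the Nkx6.1 points lie wholly above or wholly below the bGAL points, and the largest difference in means among the falls is that of Rbp4, with means of 1.80 under Nkx6.1 and 4.64 under bGAL.

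The mitosis list held 74 genes, of which 59 were on the array and 57 were tested. Of these 57, 9 rose and 0 fell, against 0.163% and 0.051% called over all genes. The 9 were Cdk1, Plk1, Aurka, Mastl, Melk, Hmmr, Tpx2, Ckap2 and Stmn1. Wholly above bGAL lay 23 genes and wholly below it 0, beside 3.55% and 4.27% of all genes. Of the 57 differences 47 were positive, beside 4264 of 9809 over all genes. The median difference was 1.11, beside -0.09 over all genes. It was 1.41 within the arrays with many empty probes, 0.82 within those with few, and 0.68 after quantile normalization. Over the 44 of these genes with a value on all 10 arrays, the median level was -1.54, -2.23, -1.29, -1.68 and -1.63 on Nkx6.1 arrays 1 to 5, against -3.23, -3.15, -3.27, -3.11 and -3.30 on bGAL arrays 1 to 5. The Nkx6.1 arrays were thus all higher in this median, with Nkx6.1 2 the lowest of them. Without Nkx6.1 2, 17 of the 57 were called, and 8 with the array set also as a block.

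By role, 5 of 10 kinases rose, with a median difference of 1.67 over the 10, and 4 of 20 kinesin and spindle genes rose, with a median of 1.06. Among the 9 anaphase and checkpoint genes, 0 were called, 4 lay wholly above bGAL, beside 3.55% of all genes, and the median was 1.21. Pttg1, the securin that holds sister chromatids together until anaphase, read -0.81, 2.04, -0.90, -0.99 and -0.86 under Nkx6.1, against -3.43, -2.98, -3.29, -3.45 and -3.12 under bGAL. Its Nkx6.1 2 value stood far above the others, and the difference of 2.95 (SE 0.53) had an adjusted p of 0.0808, against 2.36 and 0.000492 without that array. Cdc20, an activator of the anaphase-promoting complex, differed by 2.24 (SE 0.48, adjusted p = 0.131). Ube2c, an E2 enzyme of that complex, differed by 2.13 (SE 0.51, adjusted p = 0.187), and Mad2l1, a checkpoint protein, by 1.22 (SE 0.20, adjusted p = 0.0586). All 3 had groups that did not overlap.

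Among the 13 centromere and chromosome genes, 0 were called and 12 of 13 differences were positive, beside 4264 of 9809 over all genes. Wholly above bGAL lay 4, beside 3.55% of all genes. Mki67, the proliferation marker Ki-67, read -3.26, -2.29, -2.45, -2.81 and -2.59 under Nkx6.1, against -5.36, -4.03, -4.80, -4.0 and -4.55 under bGAL. The groups were separate, and the difference of 1.87 (SE 0.31, 3.65-fold) narrowly missed the threshold (adjusted p = 0.0526). Cenpt, which links centromeres to kinetochores, differed by 2.98 (SE 0.65, adjusted p = 0.139), with bGAL values spread from -6.64 to -2.83, while a further Cenpt probe with 4 values under Nkx6.1 and 2 under bGAL differed by -0.42. Top2a, the topoisomerase that disentangles chromosomes, differed by 1.24 (SE 0.51, adjusted p = 0.41). The 3 tested cyclin partners showed no common direction, with 1.13 for the phosphatase gene Cdc25c, -0.34 for the cyclin Ccnb2 and -0.55 for the phosphatase gene Cdc25b, none called. A further Cdc25c probe, with 4 values under Nkx6.1 and 2 under bGAL, differed by -0.14. Of the transcription factors of this programme, Mybl2 differed by 1.6 (adjusted p = 0.352) and Foxm1 by 0.16 (adjusted p = 0.893).

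**Figure D2:**
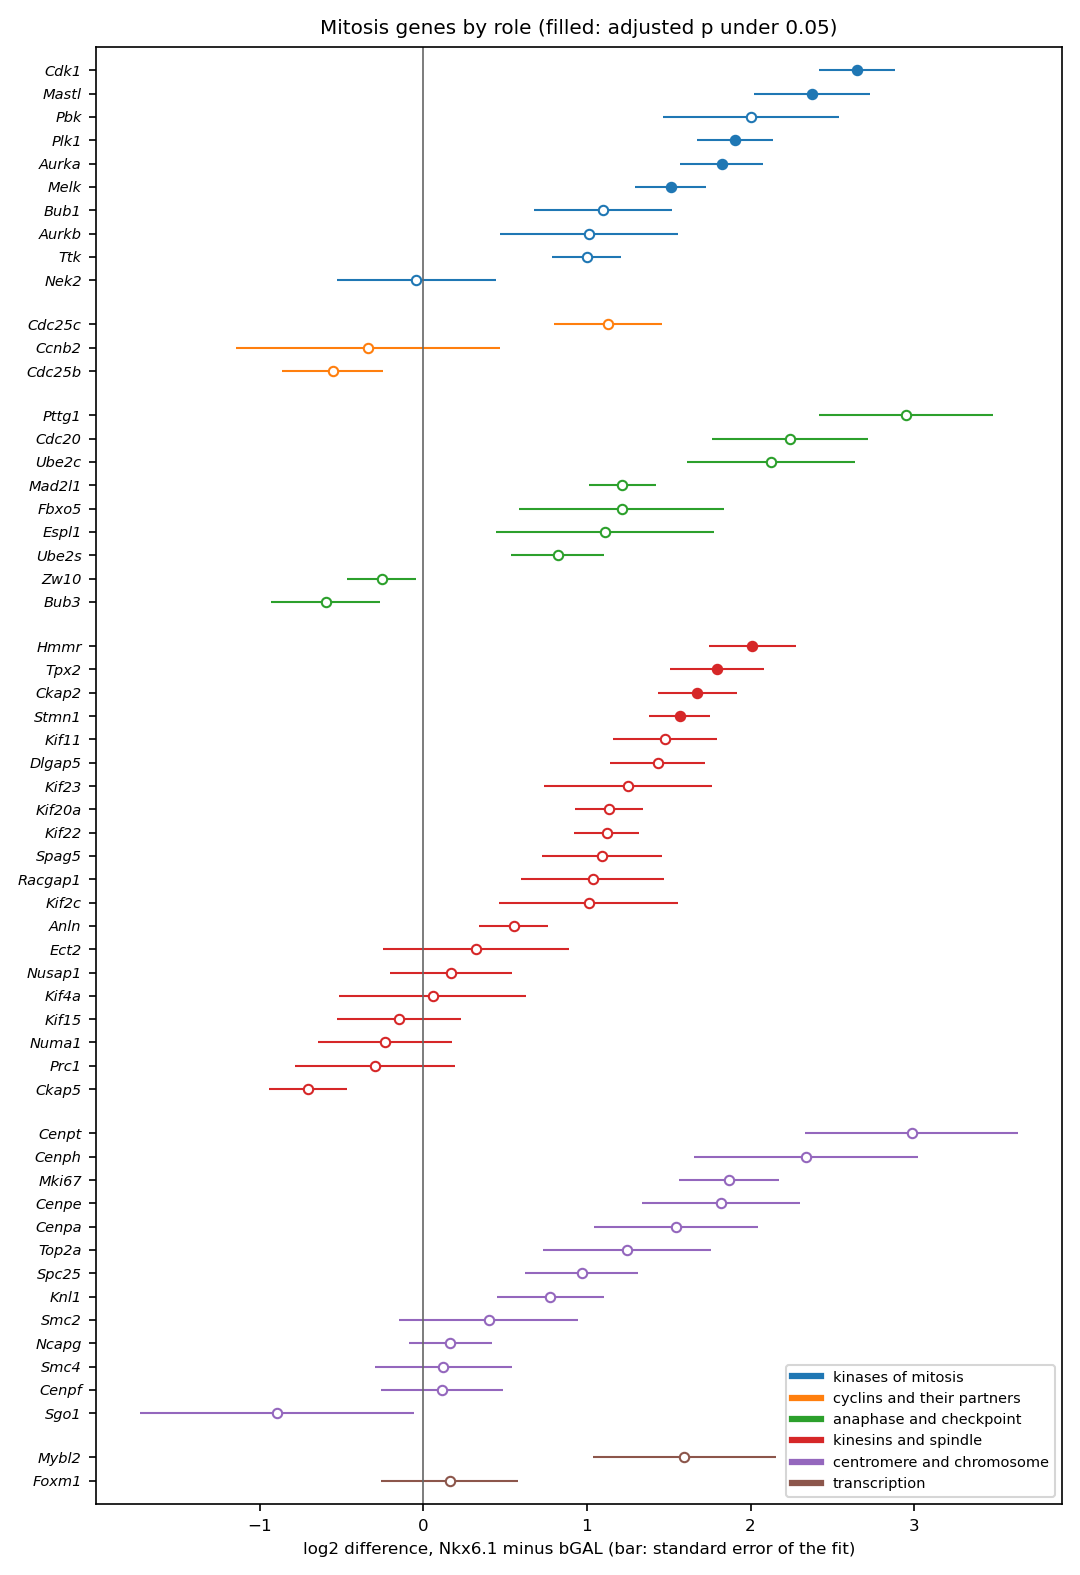
Difference in level (log2, Nkx6.1 minus bGAL, bars are the limma SE) of the 57 tested mitosis genes, grouped by role, with filled points for an adjusted p under 0.05. The 9 filled points are kinases and spindle genes, and 47 of the 57 points lie to the right of 0.

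Promoters of several risen genes share letters that late cell-cycle genes are known for. The letters TTTGAA form the cell-cycle genes homology region (CHR), and CCAAT is the box bound by the factor NF-Y. Both were searched on both strands, where they read TTCAAA and ATTGG in reverse, and the motifs can share a single letter. The windows run from 250 bases before to 50 bases after each gene's start, in RefSeq sequence of build GRCr8. The following 4 are shown because their genes rose and hold both motifs, which are in capitals: Cdk1 (chr20:19265043-19265342, plus strand), Plk1 (chr1:186147408-186147707, plus strand), Hmmr (chr10:25665166-25665465, minus strand) and Cdkn3 (chr15:22502136-22502435, plus strand).
Cdk1: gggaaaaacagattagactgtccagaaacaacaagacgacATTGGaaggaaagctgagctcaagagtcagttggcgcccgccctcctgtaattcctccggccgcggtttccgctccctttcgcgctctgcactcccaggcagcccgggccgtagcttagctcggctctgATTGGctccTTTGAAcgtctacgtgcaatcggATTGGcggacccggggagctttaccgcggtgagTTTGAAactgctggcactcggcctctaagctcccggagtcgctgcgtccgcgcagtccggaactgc
Plk1: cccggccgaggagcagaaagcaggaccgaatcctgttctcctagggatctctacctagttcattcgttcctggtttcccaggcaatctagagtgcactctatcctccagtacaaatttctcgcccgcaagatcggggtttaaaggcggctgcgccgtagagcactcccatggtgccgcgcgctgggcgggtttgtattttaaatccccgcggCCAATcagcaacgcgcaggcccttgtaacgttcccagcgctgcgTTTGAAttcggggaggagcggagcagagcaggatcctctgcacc
Hmmr: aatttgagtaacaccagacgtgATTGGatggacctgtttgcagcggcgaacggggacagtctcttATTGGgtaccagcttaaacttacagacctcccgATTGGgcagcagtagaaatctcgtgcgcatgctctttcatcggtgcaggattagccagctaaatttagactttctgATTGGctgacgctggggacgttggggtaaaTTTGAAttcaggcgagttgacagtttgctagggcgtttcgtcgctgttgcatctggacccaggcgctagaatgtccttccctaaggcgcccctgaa
Cdkn3: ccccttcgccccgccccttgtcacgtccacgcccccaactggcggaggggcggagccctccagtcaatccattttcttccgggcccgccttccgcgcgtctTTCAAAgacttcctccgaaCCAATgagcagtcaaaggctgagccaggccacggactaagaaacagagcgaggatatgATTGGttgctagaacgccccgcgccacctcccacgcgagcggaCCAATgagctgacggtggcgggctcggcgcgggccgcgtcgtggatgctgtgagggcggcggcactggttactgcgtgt

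Of the 17 named genes called higher, 15 had a promoter in the sequence table, and 6 of the 15 held both motifs: Cdk1, Cdkn3, Ckap2, Hmmr, Plk1 and Tacc3. Both motifs were held by 27 of 49 mitosis promoters (55.1%), against 5.66% of the 8121 promoters of tested genes and 7.25% of all 27457. TTTGAA alone was in 32 of the 49 (65.3%) against 13.8% of tested genes and 18.1% of all. CCAAT was in 37 of the 49 (75.5%), against 38.0% of tested genes and 37.7% of all. The letters TTTCCCGC, one form of the site of E2F factors, were in 6 of 35 promoters of tested G1/S genes (17.1%) against 1.96% of tested genes and 1.03% of all. They were in 0 of the 49 mitosis promoters and 0 of the 15 promoters of genes called higher. The called gene of the G1/S list, E2f8, had no promoter in the sequence table. TTAATTA, a core that homeodomain proteins such as Nkx6.1 can bind, was rare, in 1.90% of tested genes and 2.99% of all. It was in 0 of the 15 promoters of genes that rose and 0 of the 3 of genes that fell. At such shares 0 is the likely count in so few promoters, so these counts show no contrast. These matches describe the letters in a window, not binding.

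The earlier steps of the cycle were covered by a list of their own. Of 46 tested G1/S and DNA replication genes, 1 rose and 0 fell, 7 lay wholly above bGAL and 0 below, beside 0.163% and 0.051% called and 3.55% and 4.27% non-overlapping over all genes. The median difference was 0.58, and 0.33 after quantile normalization. The gene that rose was E2f8, a repressor of the E2F family that acts late in S phase. It read -2.06, -2.13, -1.66, -2.39 and -1.42 under Nkx6.1, against -4.70, -4.17, -4.76, -3.44 and -4.80 under bGAL, a clear gap of 2.44 (SE 0.31, 5.42-fold, adjusted p = 0.0154). Ccna2, the cyclin of S phase and G2, read -2.04, -4.20, -1.93, -2.74 and -2.24 under Nkx6.1, against -4.93, -3.74, -5.32, -4.64 and -4.73 under bGAL. There the array Nkx6.1 2 lay among the bGAL values. The difference was 2.04 (adjusted p = 0.143), against 2.44 (adjusted p = 0.0137) without that array. With the array set also as a block, 0 genes of this list were called. Mcm6, part of the replicative helicase, differed by 1.11 (adjusted p = 0.197), and Gmnn, which blocks relicensing of copied DNA, by 1.44 (adjusted p = 0.17). Orc1 of the origin recognition complex differed by 1.51 (adjusted p = 0.23), Rpa2 of the single-strand binding protein by 0.82 (adjusted p = 0.169) and Rfc3 of the clamp loader by 0.99 (adjusted p = 0.237). By role, the medians were 0.75 over 16 licensing genes, 0.60 over 15 fork genes and 0.21 over 8 cyclins and kinases.

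Of 12 tested cell-cycle inhibitors and p53 targets, 0 were called, and the median difference was 0.28. An unadjusted limma p under 0.05 was reached by 4 on the higher side, beside 4.82% of all genes. The growth-arrest gene Gadd45a differed by 1.00 (adjusted p = 0.228) and the pro-apoptotic Bax by 0.69 (adjusted p = 0.345). The inhibitor genes Cdkn1a (p21) and Cdkn1b (p27) differed by 0.10 and 0.38, neither called. Among 12 DNA repair genes 0 were called, and the median was 0.04. On the higher side 3 had an unadjusted limma p under 0.05 and on the lower side 1, beside 4.82% and 7.02% of all genes. Bard1, the partner of Brca1, differed by 2.56 (SE 0.65, adjusted p = 0.203). One probe named Fanca, of the Fanconi repair pathway, was called at 2.56 (5.89-fold, adjusted p = 0.0291), while the other 2 probes of that name differed by -0.65 and -0.42, so the gene has no settled direction.

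The remaining named rises were outside the cycle. Cidea, a lipid droplet protein known from brown fat, read 1.03, -0.36, 1.20, 0.90 and 0.23 under Nkx6.1, against -2.76, -2.10, -1.97, -1.55 and -1.73 under bGAL. The difference of 2.62 (SE 0.35, 6.15-fold, adjusted p = 0.017) was close in size to that of Cdk1. Ly6i, a member of the Ly6 family of surface proteins, read 2.52, 2.67, 1.04, 1.35 and 1.89 under Nkx6.1, against -0.18, -0.07, -0.04, -0.06 and -0.26 under bGAL. It varied among Nkx6.1 arrays and hardly among bGAL arrays, and differed by 2.02 (SE 0.32, 4.04-fold, adjusted p = 0.0446). Nrm, the nuclear envelope protein nurim, differed by 1.91 (SE 0.31, 3.76-fold, adjusted p = 0.0481). Dusp1, the phosphatase that switches off MAP kinases, read -3.23, -3.00, -2.97, -2.94 and -3.29 under Nkx6.1, against -4.40, -4.33, -4.20, -4.27 and -4.27 under bGAL. It had the smallest difference of the named rises, 1.20 (SE 0.18, 2.3-fold, adjusted p = 0.0289), with a small spread in both groups. The 4 called probes without a symbol differed by 3.45, 2.34, 1.76 and 1.73.

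Rbp4, the retinol carrier that is enriched in delta cells of the islet, fell furthest among the called genes. It read 1.41, 2.81, 1.5, 1.96 and 1.31 on the Nkx6.1 arrays, against 4.47, 4.29, 4.88, 4.66 and 4.91 on the bGAL arrays. The highest Nkx6.1 value, on array 2, still lay below the lowest bGAL value, and the difference was -2.84 (SE 0.31, 7.18-fold lower, adjusted p = 0.00932). Hhex, the homeobox factor needed for delta cells in mice, read -3.26, -3.86, -3.13, -3.49 and -3.08 under Nkx6.1, against -1.53, -1.45, -1.68, -1.89 and -2.01 under bGAL. All 5 Nkx6.1 values lay below all 5 bGAL values, with a difference of -1.65 (SE 0.22, 3.14-fold lower, adjusted p = 0.0184).

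Sst, the hormone somatostatin itself, read 3.03, 6.38, 2.49, 3.07 and 2.67 under Nkx6.1, against 4.33, 4.85, 4.63, 4.25 and 5.03 under bGAL. On 4 Nkx6.1 arrays it lay below every bGAL array and on Nkx6.1 2 above every one. With all arrays the difference was -1.09 (SE 0.65, adjusted p = 0.554), and without Nkx6.1 2 it was -1.80 (adjusted p = 0.00926). It was 0.16 after quantile normalization. In the delta-cell list of 7, 5 genes were tested, 2 fell and 0 rose, beside 0.051% and 0.163% of all genes. All 5 differences were negative, beside 5545 of 9809 over all genes, with a median of -1.09. That median was -1.53 without Nkx6.1 2, -0.59 within the arrays with few empty probes, -1.68 within those with many and -0.38 after quantile normalization. Etv1 and Cckbr differed by -0.27 and -0.28, neither called.

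Calcb, the precursor of the neuropeptide beta-CGRP, was empty on Nkx6.1 1 and read 0.36, 0.19, 0.91 and -0.59 on the other 4 Nkx6.1 arrays, against 3.90, 3.20, 2.95, 2.07 and 2.92 under bGAL. It fell by 2.79 on the log2 scale (difference -2.79, SE 0.40, adjusted p = 0.0339), although the arrays with few empty probes differed by only -1.85. Slc6a2, the noradrenaline transporter, read -0.01, 0.48, 0.14, -0.06 and 0.26 under Nkx6.1, against 2.00, 2.86, 3.13 and 2.17 on the 4 bGAL arrays with a value. Its difference was -2.38 (SE 0.29, adjusted p = 0.0154), and a further probe of the gene, with 4 values under Nkx6.1 and 3 under bGAL, differed by 0.20. Ms4a7, a membrane protein of macrophages, read 1.21, 0.66, 1.70, 1.72 and 1.24 under Nkx6.1, against 3.57, 3.93, 3.10, 2.80 and 3.61 under bGAL. It was lower on each Nkx6.1 array than on any bGAL array, with a difference of -2.10 (SE 0.29, adjusted p = 0.0195).

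**Figure D3:**
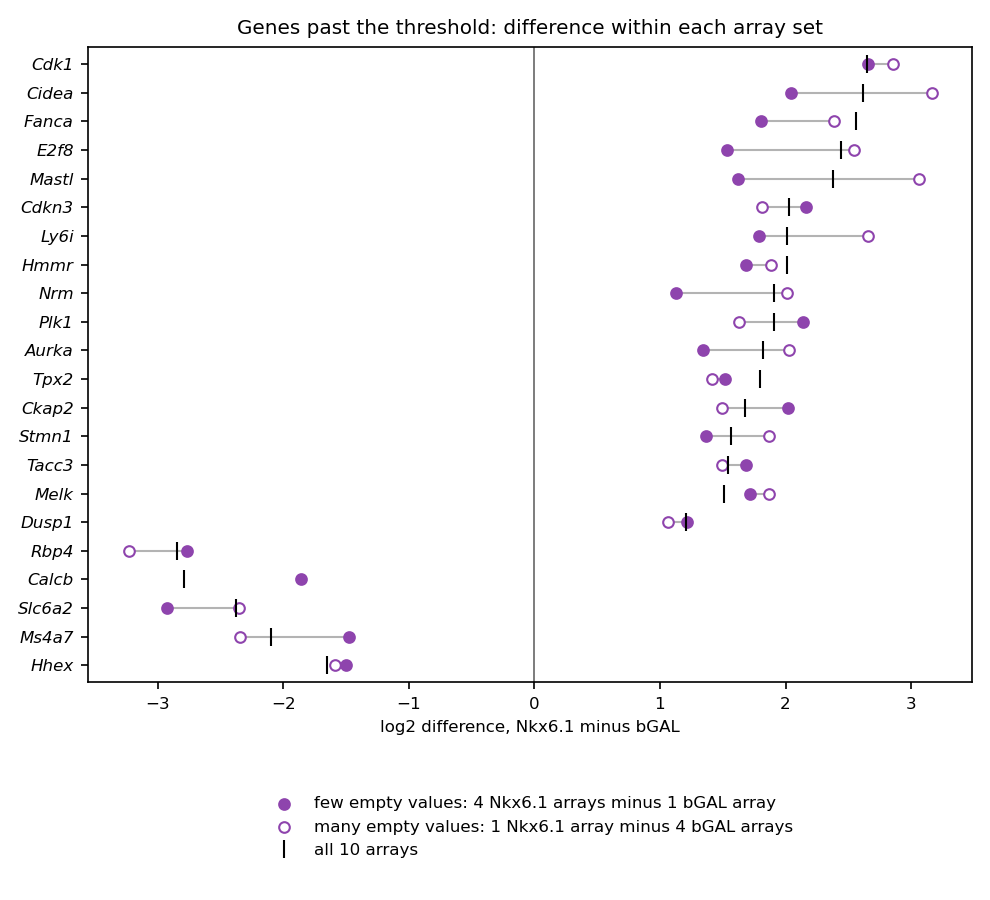
Difference in level (log2, Nkx6.1 minus bGAL) of the 22 named called probes within the arrays with few empty probes (filled, 4 Nkx6.1 against 1 bGAL), within those with many (open, 1 Nkx6.1 against 4 bGAL) and over all 10 arrays (tick). Each gene keeps its sign in both sets, as groups that do not overlap must. Calcb has no value on the Nkx6.1 array of the second set.

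Each call was set against the arrays' empty probes. Because the groups of all 26 called probes do not overlap, no sign could change within an array set or with the set as a block. Within the arrays with few empty probes, the 26 gave rises of 1.13 to 3.76 and falls of -2.93 to -1.47. Within the arrays with many, the 25 with a value gave rises of 1.06 to 3.17 and falls of -3.23 to -1.59. Each of these contrasts has 1 array on one side. When the array set entered the fit as a block, 0 of the 17992 probes were called (791 at an unadjusted limma p under 0.05). The smallest adjusted p among the 26 was then 0.0549. That block without Nkx6.1 2 called 25 probes, 14 of them among the 26. Leaving out Nkx6.1 2 alone called 80 probes, 67 higher and 13 lower, and the 26 were all among them. Leaving out 1 array at a time called 2 probes without Nkx6.1 3 or without Nkx6.1 5, 188 without bGAL 4 (63 higher and 125 lower), and 7 to 18 without any other array but Nkx6.1 2. Quantile normalization called 6 probes, 3 of them among the 26: E2f8, Ly6i and the Fanca probe.

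Vgf, the precursor of the peptide in the series title and a secreted protein of neuroendocrine granules, read 3.41, 5.73, 3.26, 2.95 and 3.38 under Nkx6.1, against 2.31, 1.38, 2.13, 1.48 and 1.30 under bGAL. The groups did not overlap, yet the difference of 2.02 (SE 0.49, 4.06-fold) was not called (adjusted p = 0.192), with the array Nkx6.1 2 far above the rest. Without that array it was 1.53 and was called (adjusted p = 0.0395). With the array set also as a block, neither Vgf nor any other granin was called. Of 12 granins and prohormone-processing genes, 0 were called, 1 lay wholly above bGAL, beside 3.55% of all genes, and the median was 0.32. That median was 1.53 after quantile normalization, 0.27 with the arrays scaled to one spread and -0.12 without Nkx6.1 2. Chga, the granule protein chromogranin A, differed by 0.32 (adjusted p = 0.747), Scg2 by 0.31 (adjusted p = 0.732) and the convertase gene Pcsk1 by 0.33 (adjusted p = 0.735).

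Of 18 tested beta-cell genes, 0 were called in either direction, and the median difference was -0.07, against 1.52 after quantile normalization. The insulin genes were high in both groups. Ins1 read 3.79, 7.49, 4.86, 4.02 and 5.13 under Nkx6.1, against 3.48, 4.46, 3.66, 4.49 and 4.14 under bGAL (difference 1.01, SE 0.61, adjusted p = 0.556). Nkx6.1 2 again held the highest value, and without it the difference was 0.41. Ins2 differed by 0.91 (adjusted p = 0.556), and Iapp, the co-secreted amylin, by 0.67 (adjusted p = 0.664). Slc2a2, the glucose transporter GLUT2, read 6.94, 7.84, 7.47, 6.98 and 7.77 under Nkx6.1, against 6.40, 7.01, 6.66, 6.63 and 6.37 under bGAL (0.78, SE 0.25, adjusted p = 0.315). Of the beta-cell transcription factors, Isl1 differed by -0.87 (adjusted p = 0.614) and Nkx2-2 by -1.90 (adjusted p = 0.41), with 2 bGAL values for Nkx2-2. Among the alpha-cell genes, Gcg (glucagon) differed by 0.20 (adjusted p = 0.897) and Ttr (transthyretin) by -0.83 (adjusted p = 0.626). Ppy, the hormone of PP cells, differed by 0.01, and the epsilon-cell hormone Ghrl (ghrelin) by -0.92, neither called.

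Among 13 tested neuropeptide genes, Calcb fell and 0 rose, beside 0.051% and 0.163% of all genes, with a median of -0.05. Gast (gastrin) was not called at -2.94 (adjusted p = 0.0724), with only 2 bGAL values, 2.71 and 3.17. Of 15 exocytosis genes 0 were called, and the median was -0.24, against -0.13 without Nkx6.1 2 and 0.09 after quantile normalization. Unc13c, a priming factor of vesicles, differed by -4.66 (SE 0.74, adjusted p = 0.0932), over 4 values under Nkx6.1 and 3 under bGAL. A further Unc13c probe, with 4 and 2 values, differed by 0.21, so the probes disagree in sign.

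**Figure D4:**
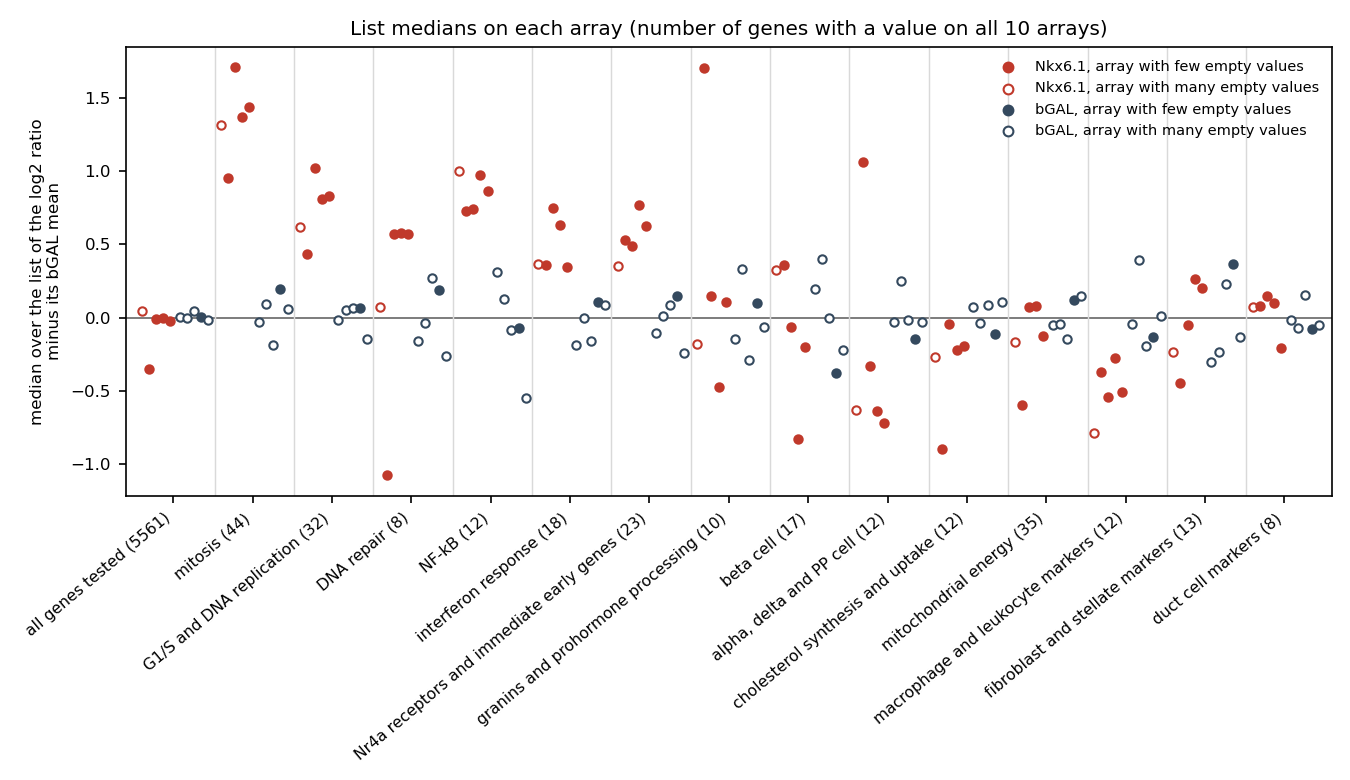
Median over all genes tested and over the genes of each of 14 lists of the level minus the gene's bGAL mean (log2), for each of the 5 Nkx6.1 arrays (left) and 5 bGAL arrays (right), over genes with a value on all 10 arrays. All 5 Nkx6.1 arrays lie above all 5 bGAL arrays in the mitosis, G1/S, NF-kB, interferon and immediate early lists, and below them in the macrophage and leukocyte list. In median level without that subtraction, the groups stay apart in the mitosis and G1/S lists. They overlap in the NF-kB list (Nkx6.1 2 at -1.66, bGAL 1 at -1.36) and in the interferon, immediate early and macrophage lists. The NF-kB points cover 12 of its 22 tested genes.

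Immediate early genes, which respond within minutes to growth and stress signals, gave 1 called rise (Dusp1) among 29 tested, with 6 wholly above bGAL, 0 below and a median of 0.51. Over all genes 0.163% were called higher, 3.55% lay wholly above and 4.27% wholly below. The list's median was 0.07 after quantile normalization. Pde4b, a cAMP phosphodiesterase, differed by 0.96 (adjusted p = 0.154), the orphan receptor gene Nr4a1 by 0.85 (adjusted p = 0.311) and the AP-1 member Fosl1 by 0.74 (adjusted p = 0.271). These 3 had separate groups. Dusp6, another MAP kinase phosphatase, differed by 1.05 (adjusted p = 0.328), and the growth factor Areg by 1.39 (adjusted p = 0.356), with overlapping groups.

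Inflammatory genes were not called in this contrast. Of 22 NF-kB genes 0 were called, 4 lay wholly above bGAL and 0 below, beside 3.55% and 4.27% of all genes. The median was 0.10, but 0.46 within the arrays with few empty probes, 0.94 within those with many and 0.17 without Nkx6.1 2. The 4 were among the 10 adhesion and chemokine genes, whose median was 1.15. Icam1, the adhesion molecule that holds leukocytes to vessel walls, read -0.53, 1.26, -0.84, -0.25 and -0.76 under Nkx6.1, against -2.07, -2.09, -2.70, -2.10 and -2.60 under bGAL. The groups were apart by 2.09 (SE 0.39, 4.26-fold, adjusted p = 0.0859). Without Nkx6.1 2 they were apart by 1.72, and the gene was called (adjusted p = 0.00926). With the array set also as a block, 0 NF-kB genes were called. The membrane chemokine Cx3cl1 differed by 2.68 (adjusted p = 0.154), the neutrophil chemokine Cxcl2 by 2.00 (adjusted p = 0.179), and Cxcl10, an interferon-induced chemokine, by 1.34 (adjusted p = 0.256).

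Of 31 interferon-response genes 0 were called, 7 lay wholly above bGAL and 0 below, beside 3.55% and 4.27% of all genes. The median was 0.31, and 0.52 and 0.39 within the arrays with few and with many empty probes. Psmb9, a subunit of the immunoproteasome, read 0.82, 1.99, 0.87, 1.13 and 1.05 under Nkx6.1, against -1.08, -0.58, -0.86, -0.15 and 0.20 under bGAL (difference 1.67, SE 0.32, adjusted p = 0.0984). Its partner subunit Psmb8 differed by 1.03 (adjusted p = 0.131), the class I histocompatibility gene RT1-A2 by 1.38 (adjusted p = 0.13) and the peptide transporter Tap1 by 1.51 (adjusted p = 0.357). These 4 genes had separate groups and belong to the 11 antigen-presentation genes tested, whose median was 0.76, or 0.36 without Nkx6.1 2. Irf7, the factor that amplifies interferon production, differed by 1.80 (adjusted p = 0.202), and Oasl, an antiviral protein, by 2.53 (adjusted p = 0.115) with 2 bGAL values. Both groups carried an adenovirus, at the same labelled particle concentration, and the part of the virus in these differences was not tested.

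In the fatty acid and lipid list of 27 tested genes, Cidea rose and 0 fell, beside 0.163% and 0.051% of all genes. The median was 0.10. Ptgis, the prostacyclin synthase, read 0.75, -0.29, 0.47, 0.75 and -0.01 under Nkx6.1, against -2.51, -3.14, -1.88, -1.42 and -1.24 under bGAL. Its groups were apart by 2.37 (SE 0.39, 5.19-fold), just short of the threshold (adjusted p = 0.0501). Without Nkx6.1 2 it was called (2.53, adjusted p = 0.0304). With the array set also as a block, Cidea was the only gene of this list called. Hsd11b2, which inactivates glucocorticoids, differed by 2.35 (adjusted p = 0.131), and Ptges, a prostaglandin E synthase, by 1.14 (adjusted p = 0.218). On the negative side stood the desaturase gene Fads1, at -0.73 (adjusted p = 0.258), and the lipase gene Lpl, at -0.76 (adjusted p = 0.328).

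Of 13 cholesterol synthesis and uptake genes 0 were called, and 10 differences were negative, beside 5545 of 9809 over all genes. Wholly below bGAL lay 3 genes, beside 4.27% of all genes, and the median was -0.46. Sqle, the squalene epoxidase, differed by -0.81 (adjusted p = 0.357), Lss, the lanosterol synthase, by -0.64 (adjusted p = 0.376), Fdps, the farnesyl diphosphate synthase, by -0.59 (adjusted p = 0.502) and the isomerase gene Idi1 by -1.43 (adjusted p = 0.387). The median was -0.23 without Nkx6.1 2.

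The other lists of islet function gave 0 calls each. Their median differences were -0.13 over 21 unfolded protein response genes, 0.02 over 16 glycolytic enzymes, -0.09 over 36 mitochondrial energy genes and -0.01 over 24 ribosomal proteins, beside -0.09 over all genes. After quantile normalization these medians were 0.04, -0.2, 0.01 and -0.05. Further medians were -0.36 over 12 ion channels (-0.07 with the array set as a block), -0.10 over 17 cAMP and insulin signalling genes, -0.03 over 13 genes normally kept off in islets and -0.09 over 15 acute phase, complement and Reg genes. Apoptosis regulators had a median of 0.19 over 13 genes (-0.09 after quantile normalization), with the BH3 protein gene Bik at 1.51 (SE 0.29, adjusted p = 0.105). Islet transcription factors had a median of 0.33 over 13 genes (0.07 after quantile normalization), with Id1, an inhibitor of helix-loop-helix factors, at 1.25 (SE 0.27, adjusted p = 0.137).

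Markers of other cells were examined over whole lists, and 0 of their genes were called. Of 15 macrophage and leukocyte markers, 12 differences were negative, beside 5545 of 9809 over all genes, with a median of -0.50. An unadjusted limma p under 0.05 on the lower side was reached by 4, beside 7.02% of all genes. The per-array median level over 12 of them lay between -1.5 and -1.04 under Nkx6.1 and between -1.74 and -1.06 under bGAL, so these ranges overlapped. Taken as the median of level minus each gene's bGAL mean, the same 12 genes gave -0.78, -0.37, -0.54, -0.27 and -0.51 under Nkx6.1, against -0.04, 0.40, -0.19, -0.13 and 0.01 under bGAL, which did not overlap. The antigen-presenting RT1-Da differed by -1.63 (adjusted p = 0.32), complement C1qb by -1.22 (adjusted p = 0.355), Adgre1 (F4/80) by -1.09 (adjusted p = 0.369) and the signalling adaptor Tyrobp by -0.84 (adjusted p = 0.315). Ms4a7, called lower above, is known from the same cells, and their part in its fall was not tested.

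Medians were -0.05 over 12 duct markers, -0.06 over 16 fibroblast and stellate markers, 0.01 over 9 endothelial markers (0.46 under the array set block) and -0.01 over 9 glial and neuronal markers. Over 10 acinar markers the median was 0.40, and -0.16 without Nkx6.1 2. The duct keratin Krt19 lay between 1.62 and 3.34 on the 10 arrays, the acinar Cpa1 between -0.64 and 1.05 and Cela1 between -3.85 and -2.44, and the fibroblast Col1a2 between -2.41 and -1.35. The part of such cells in the rises of cell-cycle genes was not tested. Mafa, Prss1, Pnlip, Cftr, Cdh5 and Gfap had too few values for the test, and the array held 0 probes named Amy2a3, Krt7, Col1a1, Pecam1, Kdr or Cd68.

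The largest negative differences among non-overlapping genes were not called. The 15 largest ran from -7.38 (the coagulation factor gene F13b) to -4.41 (the amine receptor gene Taar1), with adjusted p of 0.0932 to 0.304. In all 15 the highest value was on a bGAL array with many empty probes, and 13 had no value on Nkx6.1 1. Prm1, a protamine of sperm, was empty on Nkx6.1 1 and read -0.07, 0.64, 0.22 and 0.37 on the other Nkx6.1 arrays, against 9.60, 4.72, 5.34, 3.85 and 3.56 under bGAL (difference -5.13, adjusted p = 0.131). Prm1 is silent outside male germ cells, and yet its bGAL levels lay far above 0. Within the arrays with few empty probes the 15 differences ran from -3.63 to -0.20. Among the 15 largest rises, by contrast, 5 were called: Cdk1, Cidea, the Fanca probe, E2f8 and Mastl.

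The 3 Pdx1 arrays share the bGAL controls with this contrast, so their values are given side by side and not compared. Cdk1 read -1.33, -1.33 and -1.6 on them. Cidea read -1.25, -0.90 and -2.04, Ly6i -0.07, -0.38 and -0.33 and Dusp1 -4.31, -4.11 and -4.49. Rbp4 read 4.45, 4.53 and 5.26, and Hhex -0.91, -0.88 and -0.34. Vgf read 1.35, 1.29 and 1.39. For the other named calls, Pdx1 means were -1.55 for Cdkn3, -2.17 for E2f8, -1.07 for Mastl, -1.76 for Plk1 and -1.42 for Aurka. They were -2.05 for Melk, -2.07 for Hmmr, -2.23 for Tpx2, -0.94 for Ckap2, -0.74 for Stmn1 and -2.36 for Tacc3. The rest were -0.32 for Nrm, -2.59 for the Fanca probe, 2.16 for Ms4a7, 1.39 for Slc6a2 and 0.06 for Calcb.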

How the data were processed

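RNA of rat islets was measured on 2-colour spotted oligonucleotide arrays. The authors deposited log2 ratios of islet (Cy5) over reference (Cy3) RNA, centred near a median of 0 on each array, per the labels' dyes and the values; the base of the log was inferred from their range. How the authors corrected background, normalized and emptied values is not given in the sources used here. Of 26962 probes that are not among 22 control spots, 15807 carried 1 symbol, 0 several and 11155 none. Symbols were current for 12034, updated through RefSeq names for 3713 and unmatched for 60.

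A 2-group limma fit (limma 3.58.1, statmod 1.5.0, R 4.3.3) over the 10 Nkx6.1 and bGAL arrays was applied to probes with at least 2 values in each group, two-sided, with Benjamini-Hochberg adjustment over 17992 probes and a threshold of 0.05. It was tested on simulated data. Each array was taken as a biological replicate, as labelled. Genes were counted at their most complete probe (ties: the higher mean), and further probes are given where they disagree in sign or by over 1. Array sets were divided at 30% empty probes. Tables, promoter searches and figures used Python 3.11.15 with pandas 2.3.3, numpy 2.4.6 and matplotlib 3.10.9.

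The contrast and the 31 gene lists, with 851 genes, were chosen with earlier results of these data known. Named were Nkx6-1, Vgf, the called genes among the 15 largest and 10 smallest-p changes in each direction, the members of each list past the threshold with up to 6 others of smallest p, and defining markers. Members of the 15 largest non-overlapping differences that were not called, and list members beyond the 6, were named after their values were seen. Alternatives were scalings, filters, blocks, array weights, a robust variance trend, a fit over all 13 arrays and leaving out each array. The block of array set without Nkx6.1 2 was added after seeing the data.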

Additional observations from a re-analysis of the deposited data

Results flagged for a closer look

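Among 66 groups of array summaries and named genes tested for a single array far from the rest of its group, 4 stood out, and chance gives about 1 in 20. The array Nkx6.1 2 had a median correlation with the other arrays of 0.664, against 0.877 to 0.898 for the other 4 Nkx6.1 arrays. The array Nkx6.1 1 had 61.1% of its probes empty, against 1.48% to 12.4% for the other 4. Vgf read 5.73 on Nkx6.1 2, against 2.95 to 3.41 on the other Nkx6.1 arrays. The array bGAL 4 had an SD of 1.501 across probes measured on all 10 arrays, against 1.84 to 1.90 for the other 4 bGAL arrays.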

How the results depend on the processing

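The 26 called probes gave 621 probe and alternative pairs with a value, of which 312 stayed past the threshold and 309 did not. No direction was reversed, but for groups that do not overlap only a rescaling of the arrays could have reversed it. The count of 26 (21 higher, 5 lower) was 0 with the array set as a block, 0 when only arrays with few empty probes were fitted and 0 for only those with many, with 791, 858 and 873 probes at an unadjusted limma p under 0.05. The array set and group share most arrays, and 1 array stands on one side of each within-set contrast. A variance trend with a robust prior called 1 (1 higher, 0 lower) and quantile normalization 6 (3 and 3, against 80.8% higher among the 26). The fit over all 13 arrays called 114 (74 and 40, 64.9% higher) and array weights 755 (338 and 417, 44.8% higher). Arrays scaled to one spread called 36 (26 and 10), probes with values on all 10 arrays 39 (35 and 4), and the array set block without Nkx6.1 2 called 25 (23 and 2). Centring, at least 4 values per group and near-0 values as missing called 29, 33 and 28. Leaving out 1 array gave 2 to 188 calls, 2 to 67 higher and 0 to 125 lower. Without bGAL 1 to 5 the counts were 10, 11, 7, 188 (33.5% higher) and 13, and without Nkx6.1 1 to 5 they were 18, 80, 2, 11 and 2. The causes were not tested. With the replicate number as a block, 0 probes were called (0 higher, 0 lower, 1678 at an unadjusted p under 0.05). Same-numbered arrays correlated from -0.176 to 0.475 in their deviations, over 0.1 in 2 of 5 pairs. Differently numbered arrays correlated from -0.530 to 0.454, and 2 Nkx6.1 arrays correlated best with their own number. As these ranges overlap, they do not settle whether same-numbered arrays shared an islet isolation. The main fit left the arrays unpaired. The labels call the replicates independent islet isolations, which does not settle the pairing either. Of 575 uncalled genes, 314 changed sign under some alternative, in 1075 of 13254 cases (8.11%). Signal over background was not analysed here.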
